A study of Homo sapiens with 2 samples.

Results

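The annexins are a family of proteins that bind acidic membrane lipids when calcium rises. The 10 annexin genes described here are ANXA1, ANXA2, ANXA3, ANXA4, ANXA5, ANXA6, ANXA7, ANXA9, ANXA10 and ANXA11, of 18132 genes that the array measures with a probe set of 1 gene symbol. The members were chosen by gene symbol in the platform annotation, which gave 41 probe sets, all matched by Entrez ID to the RefSeq annotation. They are not every annexin on the array, which also measures ANXA8. The family was taken up with the results of these arrays known, among them the higher values of ANXA10 and ANXA3 in the knockdown, so every value below is a description.

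The cells were HCT116, an established human colorectal carcinoma line, profiled on Affymetrix PrimeView arrays and grown in DMEM with serum. The knockdown cells carried shSUN2-1, a single short hairpin against SUN2, an inner nuclear membrane protein that couples the nucleus to the cytoskeleton. The other cells carried the scrambled hairpin (Scr) and are called the control. Each group held 1 array, so no value has a replicate error and no test could be made between the groups. A second hairpin was not analysed here, and effects of SUN2 loss cannot be told apart from other effects of this hairpin or from differences between the cultures. All 6 SUN2 probe sets were lower in the knockdown array, by log2 differences of -0.39 to -0.05. The brightest over both arrays stood at 81.8% of control (-0.28) and the best-reduced at 75.4%. The smallest differences came from the dimmest probe sets. Among these, 11748048_a_at read 42.0 in the knockdown array and 43.9 in the control array, below the filter described below.

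Annexins share a core of repeated domains that hold calcium against the membrane surface, preceded by an N-terminal tail that differs from member to member and carries the binding sites for partner proteins. Many of these partners are small EF-hand calcium-binding proteins of the S100 group. Through these contacts annexins link membranes to each other and to the cortical actin network, and they take part in vesicle traffic, in exocytosis and in the sealing of torn plasma membrane. Epithelial cells of the gut express several members.

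Intensities are given below on the linear scale of the deposited table, and each difference is log2(intensity + 16) in the knockdown array minus the same quantity in the control array. Intensities of different probe sets cannot be compared with each other, because each depends on its own probes. A gene was represented by its brightest probe set and was kept when the mean over both arrays reached the median of all probe sets, an intensity of about 108. All 10 annexin genes were kept, as were 36 of their 41 probe sets and 12220 of the 18132 genes.

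Promoters of the 3 members with the largest positive differences, ANXA10, ANXA3 and ANXA1, are shown because the results turn on these members and their start regions were unlike. The sequences are RefSeq windows on GRCh38.p14 from 250 bases before to 50 bases after the annotated start, printed 5′ to 3′ on the gene's strand, which is the plus strand for all 3. Capitals mark matches, on either strand, to the TATA box spelled TATAAA, the CCAAT box in its own letters, the GC box spelled GGGCGG or the AP-1 site spelled TGANTCA, and none of the matches shown overlap. The windows lie at chr4:168092287-168092586 for ANXA10, chr4:78551520-78551819 for ANXA3 and chr9:73151615-73151914 for ANXA1.
ANXA10: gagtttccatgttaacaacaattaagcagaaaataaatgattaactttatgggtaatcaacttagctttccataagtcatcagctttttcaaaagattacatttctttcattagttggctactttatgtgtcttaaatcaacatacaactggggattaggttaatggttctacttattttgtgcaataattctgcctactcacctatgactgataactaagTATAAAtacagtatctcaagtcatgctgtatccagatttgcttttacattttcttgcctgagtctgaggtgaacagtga
ANXA3: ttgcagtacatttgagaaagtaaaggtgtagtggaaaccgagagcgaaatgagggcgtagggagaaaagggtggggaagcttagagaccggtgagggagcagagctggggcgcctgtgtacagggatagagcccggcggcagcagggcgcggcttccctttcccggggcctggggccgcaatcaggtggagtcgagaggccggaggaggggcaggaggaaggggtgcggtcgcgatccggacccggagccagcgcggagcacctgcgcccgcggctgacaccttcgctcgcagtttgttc
ANXA1: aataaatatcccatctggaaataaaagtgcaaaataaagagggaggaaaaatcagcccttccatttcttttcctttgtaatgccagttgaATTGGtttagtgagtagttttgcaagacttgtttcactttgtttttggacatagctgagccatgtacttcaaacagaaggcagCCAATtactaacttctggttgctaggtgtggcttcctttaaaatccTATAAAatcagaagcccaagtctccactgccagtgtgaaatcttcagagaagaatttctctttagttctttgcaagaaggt

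The ANXA10 window was rich in A and T, with 32.7% G or C bases and 0 CpG dinucleotides, and 2.36% of all 35116 promoter windows had a lower G and C content. Its 1 match was a TATAAA whose first base lies 29 bases before the start. The ANXA1 window was similar in composition, with 37.7% G or C bases and 0 CpG dinucleotides. It held a TATAAA that begins 31 bases before the start and 2 matches to CCAAT. The ANXA3 window was of the other kind, with 64.7% G or C bases, 25 CpG dinucleotides and no match to any of the 4 motifs. Over all promoter windows the median was 58.7% G or C and 14 CpG dinucleotides, and TATAAA was found in 11.5%, CCAAT in 34.6%, GGGCGG in 45.0% and TGANTCA in 7.71%. All 10 members matched the promoter table, with 14 windows in all. The 11 windows not shown held between 51.7% and 78.0% G or C bases. A GC box was found in 7 of the 14 windows, which belong to the 6 genes ANXA2, ANXA4, ANXA5, ANXA6, ANXA7 and ANXA11, and in none of the 3 shown. TATAAA was found in 4 of the 14 windows, those of ANXA10 and ANXA1, that of ANXA2 and 1 of the 3 of ANXA11. Whether any motif bears on the differences was not tested. A match is a run of letters and was not shown to be a bound site.

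ANXA10, a member expressed in gastric mucosa and in serrated lesions of the colon and lacking most of the usual calcium-binding sites of the family, had the largest difference of the annexins. Its only probe set (11724372_at) read 326.7 in the knockdown array and 139.9 in the control array, a gain of 186.8 intensity units and a raw ratio of 2.34. The log2 difference was 1.14, or 2.20-fold, which placed ANXA10 at rank 5 from the top among the 12220 genes. The array also carries background probe sets that match no human transcript, and the control intensity of ANXA10 exceeded 14 of these 23 while its knockdown intensity exceeded 18 of them. The brightest of these controls read 1128 in the knockdown array and 1425 in the control array. Both ANXA10 readings therefore lay within the span of these controls, as did those of ANXA3 given below. The controls were not matched to single probe sets, so these counts cannot tell specific from non-specific signal. The size of the difference depended on how background was treated, from 0.94 with a pseudocount of 64 to 1.35 after a normexp correction with an offset of 16.

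ANXA3, an annexin abundant in neutrophils, where it associates with granule membranes, was higher on both of its probe sets. The brighter one (11724283_a_at) read 768.9 in the knockdown array and 373.8 in the control array, a log2 difference of 1.01 or 2.01-fold. The other (11756334_x_at), of the class whose probes may also match further transcripts, read 701.1 in the knockdown array and 370.0 in the control array, a difference of 0.89. Both readings of ANXA3 exceeded 22 of the 23 background controls in the knockdown array and 19 in the control array. ANXA3 lay just above the 2-fold line and ranked 9 from the top.

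ANXA1, the glucocorticoid-induced annexin that restrains cytosolic phospholipase A2 and acts on formyl peptide receptors, was the next member, well short of 1.5-fold on its brightest probe set. That probe set (11744954_x_at) read 1756 in the knockdown array and 1281 in the control array, a log2 difference of 0.45 or 1.37-fold. Another read 1689 in the knockdown array and 1190.1 in the control array, the third 972.2 in the knockdown array and 694.2 in the control array, and the fourth 905.8 in the knockdown array and 644.8 in the control array. The 4 probe sets were alike in size, with differences of 0.45 to 0.50 and an SD of 0.02 between them. For comparison, the median span between the lowest and the highest difference over the 602 genes with 4 probe sets past the filter was 0.15, and in 51.3% of those genes all 4 had the same sign. Probe sets of 1 gene, here and in the other members, were read on the same 2 arrays and are not replicates. Whether they share probes was not examined. ANXA1 ranked 100 from the top, and 0.974% of genes had a larger absolute difference. The remaining ANXA1 probe set, below the filter, read 59.4 in the knockdown array and 59.5 in the control array and exceeded 11 of the 23 background controls on each.

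**Figure D1:**
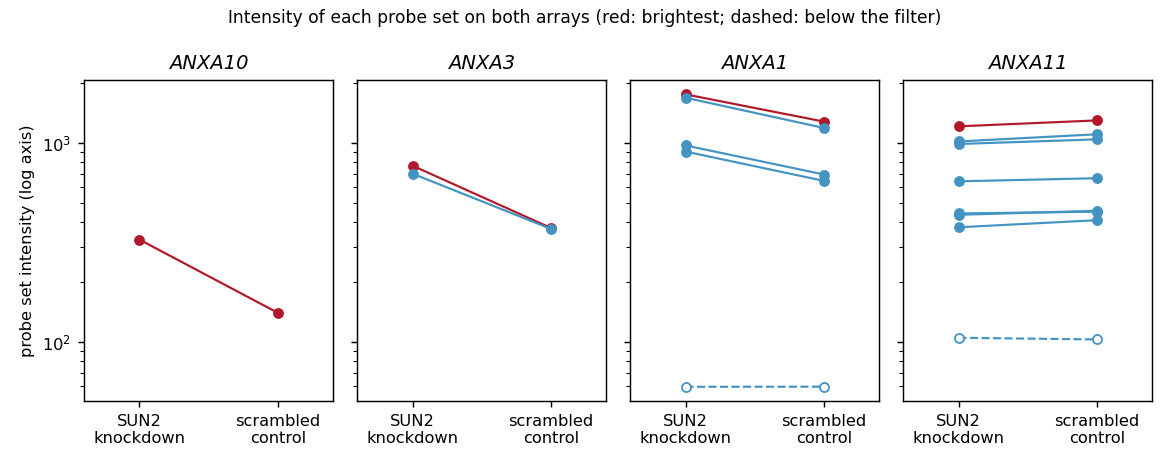
Deposited intensity (log axis) of every probe set of ANXA10, ANXA3, ANXA1 and ANXA11, with the SUN2 knockdown array on the left of each panel and the scrambled control array on the right; red marks the brightest probe set of a gene and dashed lines those below the filter. The lines of ANXA10 and ANXA3 and the 4 upper lines of ANXA1 are higher in the knockdown array, and the 7 solid lines of ANXA11 are slightly lower there.

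ANXA10 and ANXA3 were thus 2 of 10 annexins at least 2-fold higher, in a comparison where 0.0736% of all genes kept were at least 2-fold higher and 0.00818% at least 2-fold lower. At 1.5-fold the count was again 2 higher and 0 lower, beside 0.336% of all genes higher and 0.0245% lower. Since the family was chosen with these values known, the share says nothing beyond the values themselves. Over the 10 members the median difference was 0.05, beside -0.0009 over all genes kept, and without ANXA10 and ANXA3 it was 0.01. The member median turned to -0.050 after quantile normalization, -0.03 after loess and -0.01 without the probe set classes _x_at and _s_at. The 10 members as a set thus had no settled direction. A total of 6 members were higher and 4 lower, where 49.8% of all genes kept were higher.

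ANXA7, or synexin, which was first known for aggregating chromaffin granules and binds sorcin and PDCD6, was higher on both probe sets by a smaller amount. The brighter read 838.9 in the knockdown array and 722.7 in the control array, a log2 difference of 0.21. The other read 297.7 in the knockdown array and 275.2 in the control array, a difference of 0.11. A difference of this size was common: 12.5% of genes had a larger absolute one. Bright genes also leaned upward as a class in the knockdown array. In the brightest of 5 equal bins the median difference was 0.10 with quartiles of 0.001 and 0.19. This bin held ANXA7 with ANXA1, ANXA2, ANXA3, ANXA5 and ANXA11. Of these, ANXA1, ANXA3 and ANXA7 lay above the quartiles, ANXA5 between them, and ANXA2 (-0.02) and ANXA11 (-0.10) below them. After quantile normalization, which removes the upward lean of bright genes, ANXA7 stood at 0.10.

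ANXA2, ANXA4 and ANXA5 differed little between the arrays, and the sign of their small differences depended on the probe set and the setting. ANXA2 forms a complex with S100A10 at the plasma membrane that binds actin and plasminogen. Its brightest probe set read 2749 in the knockdown array and 2781 in the control array, a difference of -0.02, and its 6 probe sets ran from -0.08 to 0.16 with 2 higher and 4 lower. The ANXA2 difference moved to -0.12 after quantile normalization and to -0.12 after loess. Near-identical copies of ANXA2 exist, and the array annotation lists 1 probe set for each of ANXA2P1, ANXA2P2 and ANXA2P3, which differed by 0.05, 0.11 and 0.06. How far these and the ANXA2 probe sets, 5 of 6 of which are of the _x_at or _s_at class, read each other's transcripts was not tested.

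ANXA4, a member found in secretory and absorptive epithelia, had the most probe sets, 9, of which 8 were past the filter. These lay between -0.01 and 0.08, 5 of them higher and 3 lower, with an SD of 0.03, and the ninth differed by 0.03. The brightest read 442.2 in the knockdown array and 430.1 in the control array. This span of 0.09 is narrow beside the median span of 0.23 over the 34 genes with 8 probe sets past the filter.

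ANXA5, which binds exposed phosphatidylserine and is used as a label for dying cells, read 1003 in the knockdown array and 965.2 in the control array on its brightest probe set, a difference of 0.05. The other 3 of its 4 probe sets past the filter were lower, by -0.03 to -0.01, and the 2 below the filter differed by 0.11 and -0.03. Over the settings tried, ANXA2 was lower under 10 of 12, ANXA4 higher under 9 of 12, and ANXA5 higher under 9 of the 11 that kept it.

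ANXA11, ANXA9 and ANXA6 were lower in the knockdown array. ANXA11 has a long tail rich in proline and glycine, binds PDCD6 and S100A6, and tethers RNA granules to lysosomes. Its brightest probe set read 1213 in the knockdown array and 1299 in the control array, which is 1.07-fold lower (log2 difference -0.10). All 7 ANXA11 probe sets past the filter were lower, by -0.12 to -0.03. Among the 54 genes with 7 probe sets past the filter, all 7 had the same sign in 38.9% and were lower in 11.1%. The eighth ANXA11 probe set, below the filter, read 104.9 in the knockdown array and 102.8 in the control array. The ANXA11 difference was negative under all 12 settings and reached -0.22 after quantile normalization. A difference of the size reported was common, as 46.5% of genes had a larger absolute one.

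ANXA6, the member with a duplicated core, which regulates membrane cholesterol and signalling at the plasma membrane, was also lower, with a larger negative difference than ANXA11 as reported and a smaller one after quantile normalization (-0.19 for ANXA6 and -0.22 for ANXA11) and after loess (-0.17 for ANXA6 and -0.20 for ANXA11). Its 1 probe set read 122.8 in the knockdown array and 143.6 in the control array, which is 1.15-fold lower (log2 difference -0.20). Both values exceeded 14 of the 23 background controls, and 20 of those controls were themselves lower in the knockdown array, whose part in the ANXA6 difference was not tested. ANXA9, a member whose calcium-binding sites are altered, read 349.3 in the knockdown array and 367.1 in the control array on its 1 probe set, a difference of -0.07. A larger absolute difference was found for 13.9% of genes in the case of ANXA6 and for 61.4% in that of ANXA9. Counted from the lowest difference among all genes kept, ANXA6 ranked 296 and ANXA9 ranked 3465.

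**Figure D2:**
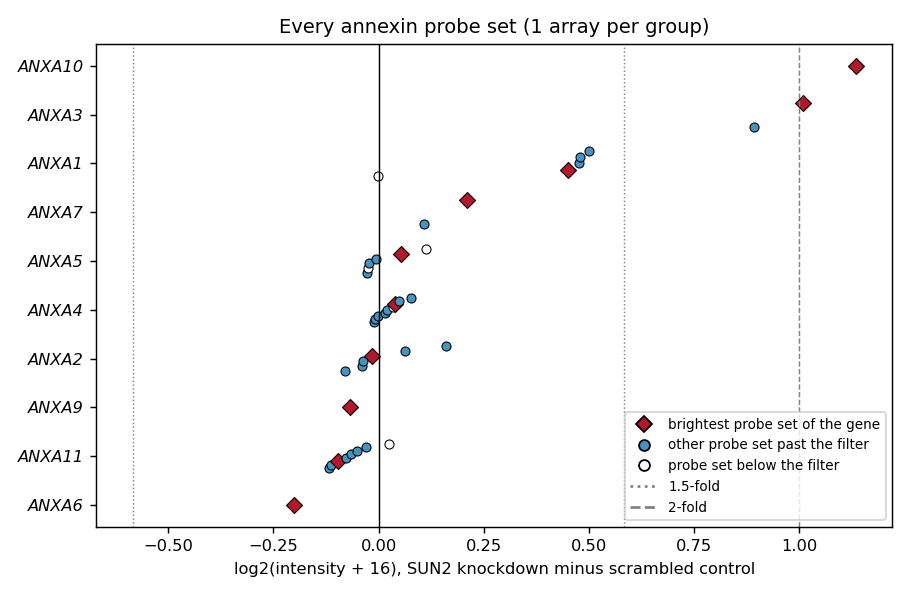
Difference of log2(intensity + 16), SUN2 knockdown minus scrambled control, for all 41 annexin probe sets (diamonds: brightest of the gene; filled circles: others past the filter; open circles: below the filter). ANXA10, ANXA3 and the 4 ANXA1 probe sets past the filter lie to the right, from 0.45 to 1.14, while the probe sets of ANXA2, ANXA4, ANXA5, ANXA9 and ANXA11 lie between -0.12 and 0.16.

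**Figure D3:**
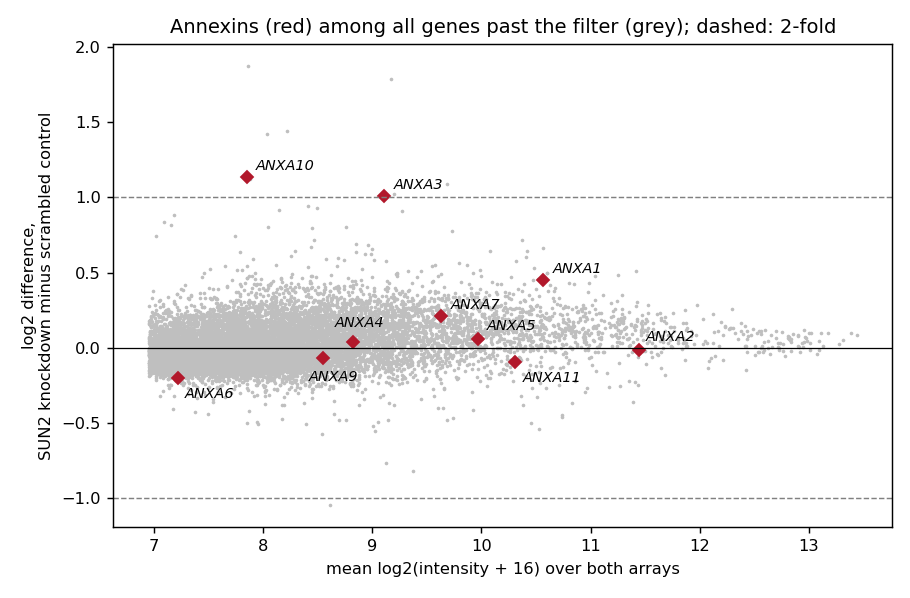
Difference between SUN2 knockdown and scrambled control (vertical axis, log2) against the mean log2(intensity + 16) of both arrays (horizontal axis) for the 12220 genes past the filter (grey) and the 10 annexins (red), with dashed lines at 2-fold. ANXA10 and ANXA3 lie at 1.14 and 1.01, at the upper edge of the cloud, ANXA1 at 0.45 lies in its upper margin, and the other 7 lie inside it.

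The partners of the annexins were examined as 4 lists, and no gene of any list reached 1.5-fold in either direction. Over all genes kept, 0.336% were at least 1.5-fold higher and 0.0245% at least 1.5-fold lower, so nothing about the partners is read from the count of 0. Of the S100 and other EF-hand genes, 21 were on the array under 1 symbol and 13 passed the filter, with 7 higher and 6 lower and a median of 0.01. S100A11, the partner of ANXA1, read 974.7 in the knockdown array and 776.4 in the control array, a difference of 0.32 on its 1 probe set, which is of the _s_at class. S100A16 was higher on both probe sets, at 824.5 in the knockdown array and 631.3 in the control array on the brighter (0.38) and by 0.47 on the other.

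S100A10, the partner of ANXA2, read 1589 in the knockdown array and 1604 in the control array, a difference of -0.01, with -0.04 on its second probe set. S100A6, a partner of ANXA11, differed by 0.12, and S100A4 was lower on all 3 probe sets, by -0.14 to -0.11. PDCD6, the calcium sensor that binds ANXA7 and ANXA11, differed by 0.17 and the sorcin gene SRI by -0.01, with 5 SRI probe sets from -0.24 to 0.13. After quantile normalization S100A11 stood at 0.21, S100A16 at 0.27, S100A10 at -0.12, S100A4 at -0.23, PDCD6 at 0.07 and SRI at -0.12. After loess PDCD6 stood at 0.06 and S100A6 at 0.01, and without the _x_at and _s_at classes SRI turned to 0.13.

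Of the plasma membrane repair genes, 21 of 22 on the array passed the filter, 13 higher and 8 lower, with a median of 0.04. Myoferlin (MYOF), a ferlin that acts in membrane fusion and resealing, read 633.1 in the knockdown array and 476.3 in the control array, a difference of 0.40, with 0.45 on its second probe set. The vesicle SNARE gene VAMP7 differed by 0.28 on 1 probe set, the ESCRT-III gene CHMP2B by 0.26 with all 3 probe sets higher (0.11 to 0.26), and VPS4A, the ATPase that takes ESCRT-III apart, by 0.22 on 1 probe set. After quantile normalization MYOF stood at 0.30 and VPS4A at 0.14.

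The receptors of ANXA1 gave no signal above the filter: FPR1, FPR2 and FPR3 all fell short of it on both arrays, as did the cytosolic phospholipase gene PLA2G4A. In that list 5 of 12 genes on the array were kept, 0 higher and 5 lower, with a median of -0.08. The glucocorticoid-induced gene TSC22D3 differed by -0.13, the phospholipase genes PLA2G6 and PLA2G2A by -0.09 and -0.05, and the prostaglandin synthase gene PTGES by -0.08, with 1 of its 3 probe sets higher by 0.21. PLA2G6 stood at -0.19 after quantile normalization, and TSC22D3 at -0.03 without the _x_at and _s_at classes. Of the plasminogen activation genes 8 of 9 were kept, 5 higher and 3 lower, with a median of 0.07. The urokinase gene PLAU differed by 0.17, the protease gene CTSB by 0.16 with all 4 probe sets higher, the protease inhibitor gene SERPINE2 by 0.08 with all 5 past the filter higher, and the plasminogen-binding enolase gene ENO1 by -0.11. SERPINE2 turned to -0.03 after quantile normalization and -0.02 after loess, CTSB stood at 0.05 and 0.07 under these settings, and ENO1 at -0.23 and -0.22.

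**Figure D4:**
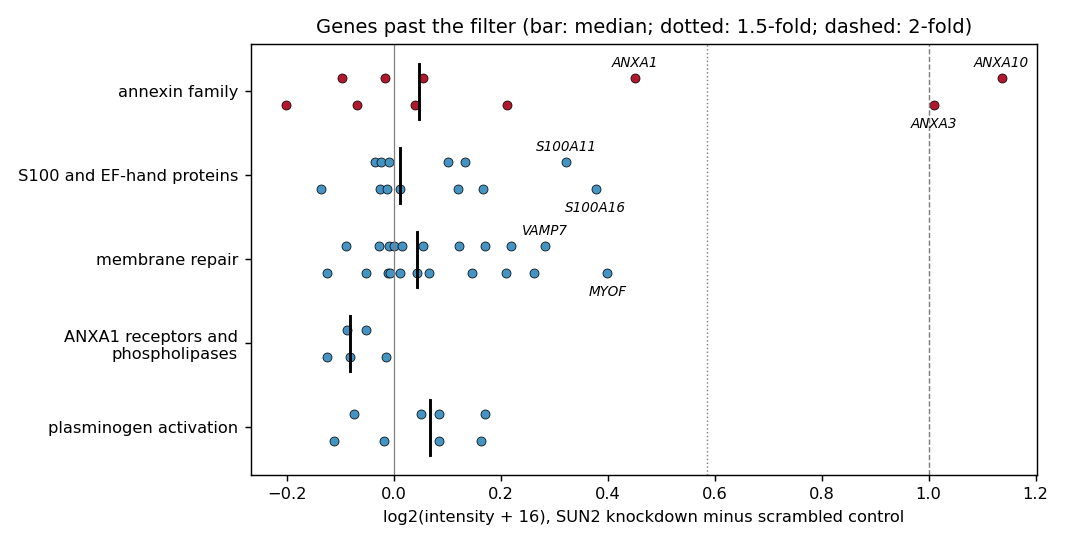
Difference of log2(intensity + 16), SUN2 knockdown minus scrambled control, of the brightest probe set of each gene past the filter, for the annexins (red) and the 4 partner lists (blue); black bars are medians, the dotted line is 1.5-fold and the dashed line 2-fold. ANXA10 and ANXA3 are the only genes shown beyond 1.5-fold, and S100A16 (0.38), S100A11 (0.32) and MYOF (0.40) lie furthest right in their lists.

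Of the epithelial markers 7 of 8 were past the filter and VIL1 fell short of it. The 7 were higher in 6 cases, and the summed intensity of all 8 in the knockdown array was 117% of control. The filter, a median intensity, also passed 3 of 8 fibroblast markers (COL1A1, PDGFRB and THY1), 5 of 8 immune markers (CD3E, CD68, CD79A, LST1 and TYROBP) and 5 of 8 endothelial markers (PECAM1, VWF, KDR, CLDN5 and ESAM), so passing it neither shows expression nor tells one lineage from another. TYROBP, for example, read 568.2 in the knockdown array and 600.5 in the control array. PTPRC, CD14, COL1A2, DCN, LUM, CDH5 and EMCN were among those that fell short. All 13 that passed were lower in the knockdown array, where 49.8% of all genes kept were higher. Across the genes kept, the median difference rose with intensity, from -0.04 in the dimmest of 5 equal bins to 0.10 in the brightest. The part of that trend in the marker values was not tested. Over all 8 markers of a list, whether past the filter or not, the fibroblast sum in the knockdown array was 95.4% of control, the immune sum 92.8% and the endothelial sum 94.0%. Of the gastric epithelial markers, examined because ANXA10 is a gastric gene, 1 of 5 was past the filter, CLDN18 at -0.09. TFF1, TFF2, GKN1 and GKN2 all fell short of it, and MUC5AC, also listed, had no probe set under 1 symbol. The part of these marker shifts in the annexin differences was not tested.

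**Figure D5:**
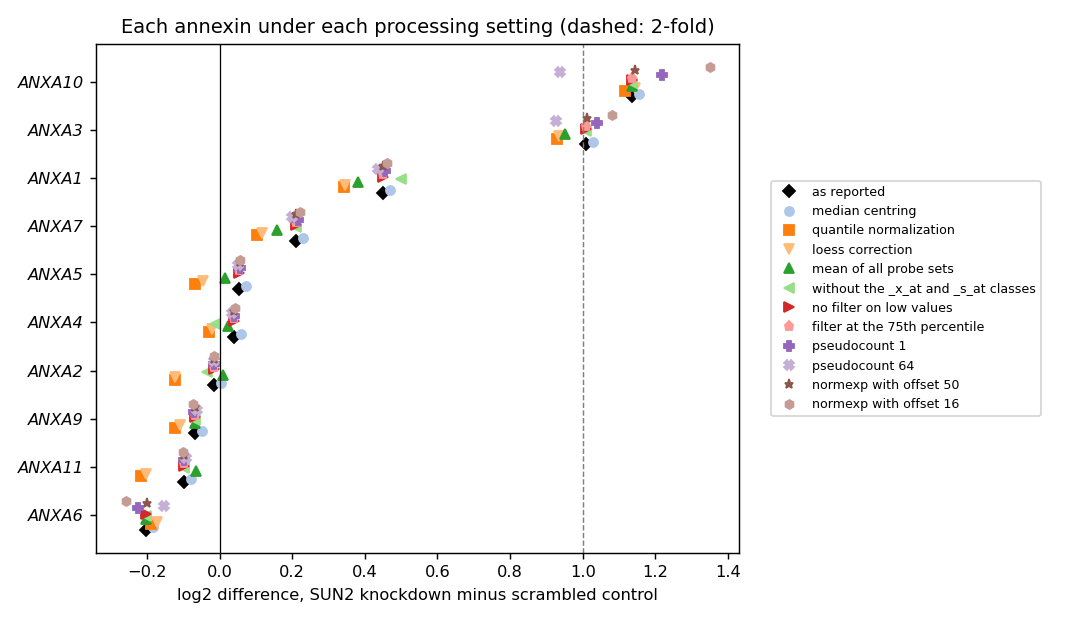
Difference of each annexin, SUN2 knockdown minus scrambled control on the log2 scale, as reported (black diamonds) and under each of 11 alternative settings (coloured symbols), with a dashed line at 2-fold. ANXA10 (0.94 to 1.35), ANXA3 (0.93 to 1.08) and ANXA1 (0.34 to 0.50) were higher under every setting, and ANXA3 straddles the 2-fold line.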

How the data were processed

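The intensities were deposited by the authors as probe set values on a linear scale. MAS5 and RMA are both listed in the submitters' processing notes, without saying which made the values, and how the arrays were scaled to each other is unknown. Deposited intensities reached down to 29.96 in the knockdown array and 30.75 in the control array, with medians of 107.1 in the knockdown array and 108.8 in the control array, so background was still in the values. No detection calls were used, and the number of arrays limits the precision.

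Values were transformed to log2(intensity + 16) in Python 3.11.15. Of 49395 probe sets, 102 controls were set aside, and 44988 of the others carried 1 gene symbol, 1832 several and 2473 none. The annotation is that of the platform, with symbols updated by Entrez ID to GRCh38.p14. Calls were replaced by counts past 1.5-fold and 2-fold, since 1 array per group leaves no degrees of freedom. The gene step was run on simulated data in which the altered genes changed by more than any annexin did as reported. That run checks the code and not the size or error of the differences given here.

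The members, lists and naming rule were chosen with earlier results of these data known. The rule covered all annexin probe sets, given here singly or as the range over a gene, and for each partner list the 4 genes with the largest absolute difference, any gene past 1.5-fold, and S100A10, S100A11, S100A6, PDCD6 and SRI. It also asked for the genes nearest to ANXA10 and ANXA3 in intensity, which are not reported because levels of different probe sets cannot be compared. The 11 alternatives were median centring, quantile normalization, loess (statsmodels 0.14.6, span 0.3), the mean of all probe sets, leaving out the _x_at and _s_at classes, no filter, a filter at the 75th percentile, pseudocounts of 1 and 64, and limma 3.58.1 normexp with offsets of 50 and 16, the last chosen after the values were seen.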

Additional observations from a re-analysis of the deposited data

How the results depend on the processing

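The count of annexins past 1.5-fold was 2, ANXA10 and ANXA3, under all 11 alternatives. The count past 2-fold was 2 as reported, 1 after quantile normalization, after loess and when all probe sets were averaged (ANXA10 in each), and 0 with a pseudocount of 64. The annexin median turned to -0.050 after quantile normalization, against 0.05 as reported. The counts of partner genes past 1.5-fold were 0 under every alternative. Quantile normalization and loess lowered bright genes such as ANXA1, to 0.34 under each, as both remove the upward lean of bright probe sets in the knockdown array. ANXA6 dropped out with the filter at the 75th percentile, and ANXA5 without the _x_at and _s_at classes. No paired analysis was possible because there is 1 array in each group, and for the same reason none could be dropped in turn.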

Other observations

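These genes of the partner lists fall outside the naming rule and were picked out after their values were seen. S100A3 read 107.9 in the knockdown array and 86.1 in the control array, a log2 difference of 0.28, on a probe set below the filter. CAVIN1, a coat protein of caveolae, differed by 0.21 with both probe sets past the filter higher, while CAV1 differed by -0.001.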
